A study of Mus musculus with 4 samples.

Results

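Interferon-responding endothelial cells of the mouse submandibular gland were chosen by their transcripts in single-cell RNA sequencing of stroma-enriched gland. A cell was endothelial when the genes Pecam1, Cdh5, Egfl7 and Flt1 together had at least 3 UMIs (unique molecular identifiers, each standing for 1 captured RNA molecule) and Ptprc and Pdgfra had none. It was a member when 5 interferon-induced genes, Ifit1, Ifit2, Ifit3, Ifit3b and Oasl1, together had at least 6 UMIs. Of 36685 cells kept, 13481 were endothelial and 1133 of these were members. They were set against the 6876 endothelial cells in which the same 5 genes summed to 0, always within the same library. All mice were female C57BL6/J. In 2 libraries, called deligated 1 and deligated 2, a metal clip had closed the main ducts for 14 days and had been off for 5 days, at an age of 14 weeks. In the other 2 libraries, homeostatic 1 and homeostatic 2, the glands of mice aged 12 weeks had not been operated on. All 4 suspensions had been depleted of EpCAM-bearing epithelial cells and Ter119-bearing red cells with magnetic beads, and of dead cells. The protocols name sublingual beside submandibular glands and do not state how many animals gave a library, so p-values measure only the spread between these libraries, which may be technical.

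Interferons are secreted proteins that bind receptors on the cell surface and act through the kinases Jak1, Tyk2 and Jak2. Type I and type III interferons lead to a complex with Stat2 and Irf9 on a DNA element called the interferon-stimulated response element (ISRE), and interferon-gamma acts through another element, the gamma-activated site (GAS). The genes switched on encode sensors of foreign nucleic acid, proteins that hinder viral replication, the ubiquitin-like modifier Isg15, GTPases that attack the membranes around intracellular microbes, and the antigen presentation machinery. Endothelial cells line blood vessels, carry both kinds of receptor and are exposed to interferons from blood and from neighbouring leukocytes.

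Promoters of 3 rule genes and of 7 other genes that the results turn on are shown, with and without the core letters of an ISRE. The sequences are from RefSeq on GRCm38.p6, each the 150 bases before the transcription start, 5′ to 3′ on the gene's strand. Capitals mark the ISRE core as searched here, GAAA followed after any 2 bases by another GAAA. Both strands were searched, so that a match on the other strand reads TTTC, any 2 bases, TTTC, and neighbouring matches can overlap.
Ifit1, chr19:34640739-34640888, plus strand: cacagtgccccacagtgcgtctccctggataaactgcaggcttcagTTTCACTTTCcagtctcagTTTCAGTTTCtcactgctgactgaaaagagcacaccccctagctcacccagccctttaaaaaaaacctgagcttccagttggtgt
Ifit3, chr19:34583379-34583528, plus strand: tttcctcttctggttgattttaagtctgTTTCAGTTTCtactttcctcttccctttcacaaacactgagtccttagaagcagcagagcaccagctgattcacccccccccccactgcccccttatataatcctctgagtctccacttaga
Oasl1, chr5:114923090-114923239, plus strand: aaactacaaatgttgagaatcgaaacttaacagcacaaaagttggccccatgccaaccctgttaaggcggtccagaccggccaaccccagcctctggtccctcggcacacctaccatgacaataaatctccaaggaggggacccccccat
Isg15, chr4:156200819-156200968, minus strand: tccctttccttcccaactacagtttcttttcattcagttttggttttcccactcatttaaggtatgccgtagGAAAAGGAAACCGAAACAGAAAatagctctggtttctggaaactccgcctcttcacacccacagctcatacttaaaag
Oas1a, chr5:120907526-120907675, minus strand: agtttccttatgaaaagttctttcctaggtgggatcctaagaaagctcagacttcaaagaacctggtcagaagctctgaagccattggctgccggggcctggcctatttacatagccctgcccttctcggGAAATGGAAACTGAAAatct
Ifi206, chr1:173491319-173491468, minus strand: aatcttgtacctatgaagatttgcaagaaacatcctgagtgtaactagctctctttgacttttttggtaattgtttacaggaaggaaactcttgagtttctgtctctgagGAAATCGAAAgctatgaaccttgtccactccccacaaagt
Gbp7, chr3:142530186-142530335, plus strand: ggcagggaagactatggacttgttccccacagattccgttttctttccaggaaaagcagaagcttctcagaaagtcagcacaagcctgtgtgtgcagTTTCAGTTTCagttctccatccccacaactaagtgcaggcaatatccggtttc
Rsad2, chr12:26456453-26456602, minus strand: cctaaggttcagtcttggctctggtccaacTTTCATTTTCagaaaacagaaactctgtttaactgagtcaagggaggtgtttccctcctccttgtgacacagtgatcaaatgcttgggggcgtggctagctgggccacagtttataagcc
Cmpk2, chr12:26469065-26469214, plus strand: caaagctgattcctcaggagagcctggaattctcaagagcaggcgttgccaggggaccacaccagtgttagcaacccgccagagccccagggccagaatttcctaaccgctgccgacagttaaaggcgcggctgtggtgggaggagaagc
Kdr, chr5:75978456-75978605, minus strand: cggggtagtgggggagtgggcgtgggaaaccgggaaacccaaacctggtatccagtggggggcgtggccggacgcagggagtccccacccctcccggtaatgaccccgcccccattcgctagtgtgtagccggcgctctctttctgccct
Ifit1 encodes a protein that binds foreign RNA ends, and its promoter held 2 matches. Isg15 held 3 overlapping matches, the nearest of them 56 bases before the start. Cmpk2, a mitochondrial nucleotide kinase gene next to Rsad2, and Kdr, a general capillary receptor gene, held none in the bases shown, nor did the rule gene Oasl1. The rule genes Ifit2 and Ifit3b, and Cxcl9, Ifi209, Oasl2 and Phf11c, also held none in their 150 bases. In windows from 250 bases before to 50 bases after the start, this core lay in 3.44% of 32851 promoters. Of 8575 tested genes with a promoter in the table, 329 (3.84%) held it. Among the genes called higher in members, 63 of 232 (27.2%) held it, and among the genes called lower, 7 of 97 (7.22%). The letters TTCNNNGAA, the core of a GAS, lay in the promoters of 702 of the 8575 tested genes (8.19%) and of 28 of the 232 genes higher in members (12.1%). Of the rule genes, 3 of 5 held the ISRE core in the longer windows. Usp18, Mx1, Zbp1 and Irf7 were not among the promoters used here. A match is a description of letters and not of binding.

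The rule genes themselves describe the cells and were not tested. Their sum had a median of 10 UMIs per member in deligated 1 and 9 in each other library, and reached 75, 49, 85 and 65 UMIs in deligated 1, deligated 2, homeostatic 1 and homeostatic 2, an order kept for every set of 4 values below. The sum rested on several genes: 93.2% of members had UMIs of at least 3 of the 5 genes, and 3 members had UMIs of 1 gene alone. Ifit1, Ifit2 and Ifit3 gave most of it, for example 28.3%, 22.4% and 30.9% of the rule UMIs in deligated 1. Ifit3 and Ifit3b share part of their 3′ sequence (25.1% of the 30-base windows in the last 500 bases of Ifit3), so their split is uncertain. At the threshold, cells with a sum of 5 numbered 52, 80, 78 and 80, and cells with a sum of 6 numbered 21, 68, 51 and 54. Isg15 stood at 322, 345, 401 and 488 CPM (UMIs per 1e+06 UMIs of the pooled cells) in the cells just outside and at 270.0, 452, 497 and 539 CPM in the cells just inside. The levels just inside and just outside the threshold overlapped.

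The endothelial label was checked against genes that the gate did not use. Summed, 9 general endothelial genes stood at 6312 to 6824 CPM in members, 6234 to 6747 CPM in sum 0 cells, 16.6 to 92.0 CPM in immune cells and 168 to 266 CPM in fibroblasts, where Eng gave most of the sum, and the other types were chosen without UMIs of the gate's endothelial genes. Between members and sum 0 cells, 0 of the 9 were called higher and 0 lower. Emcn, an endothelial sialomucin gene, stood at 1727, 1887, 2033 and 2192 CPM in members and at 1709, 1945, 2255 and 2241 CPM in sum 0 cells. The 9 capillary genes summed to 16332 to 18839 CPM in members and 15363 to 17364 CPM in sum 0 cells. The 15 immune genes summed to 12.2 to 114 CPM in members and 42.8 to 165 CPM in sum 0 cells, and 6 fibroblast genes to 11.5 to 121 CPM and 12.3 to 186 CPM. Mural genes, of the muscle cells and pericytes around vessels, summed to 20.7 to 422 CPM in members and 66.4 to 1084 CPM in sum 0 cells. Red cell genes summed to 278 to 11952 CPM in members and 2809 to 17192 CPM in sum 0 cells. Every gene of the immune, fibroblast, mural and red cell lists had UMIs in members, and the part of these transcripts in the results was not tested.

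Members were richer in UMIs than the cells they were compared with. Their median was 10440.5, 7353, 4823 and 4354 UMIs, against 4409, 3634, 3212 and 3138 in sum 0 cells, and a deeper cell reaches a sum of 6 more easily. Results are therefore also given against 1 sum 0 cell per member matched on UMIs, with medians of 10461, 6968, 4818 and 4354 UMIs. The libraries held 4725, 8713, 12854 and 13266 barcodes. Per the file headers the deligated libraries were counted with Cell Ranger 6.0.1 and the homeostatic libraries with Cell Ranger 7.0.0, so surgery, age and software version cannot be told apart in any comparison of the groups. Of 39391 distinct barcodes 167 occurred in more than 1 library, among them 11 members.

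The first question was how frequent these cells were in each group. Members made up 8.59% (95% exact Clopper-Pearson interval 7.36 to 9.96) of endothelial cells in deligated 1 and 11.3% (10.2 to 12.5) in deligated 2. In homeostatic 1 they made up 7.47% (6.70 to 8.30) and in homeostatic 2 7.19% (6.44 to 8.01). Both deligated shares lay above both homeostatic shares, by 2.61 percentage points on average (exact permutation test, two-sided, p = 0.333, the smallest that 2 against 2 libraries allow). The difference was 1.26 points without deligated 2 and 3.96 points without deligated 1. Deligated cells were also deeper. Cells were therefore thinned to 2000 UMIs, typed again from the thinned counts and counted at a sum of at least 3. Endothelial cells with fewer UMIs, 96, 243, 619 and 655 in number, were left out, which left 1766, 2812, 3662 and 3628. Typing again also let in cells that had not passed the endothelial gate on all their UMIs. The shares were 5.22%, 9.32%, 9.17% and 8.36% of 1840, 3036, 3731 and 3696 cells, and the mean difference turned to -1.49 points (exact permutation p = 1). Deligated 1 was the lowest and deligated 2 the highest of the 4, and the difference was 0.56 points without deligated 1 and -3.55 points without deligated 2. With the types kept from all UMIs it was -1.52 points (exact permutation p = 1). In the same cells of at least 2000 UMIs, not thinned and at a sum of at least 6, it was 2.11 points (exact permutation p = 0.333).

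**Figure D1:**
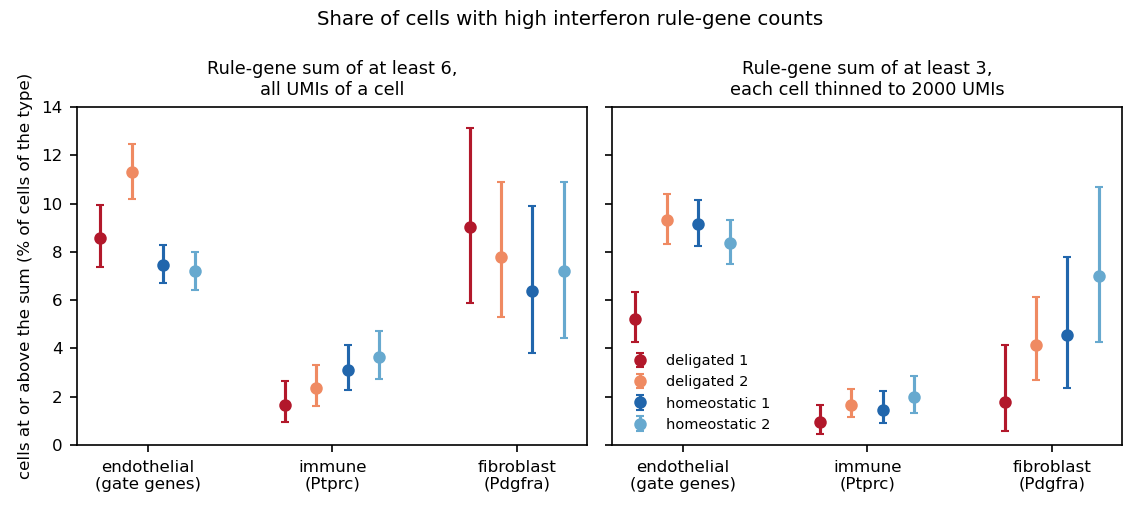
Share of cells at or above the rule-gene sum (y axis, % of cells of the type) in endothelial, immune and fibroblast cells of each library (points), with exact 95% intervals that cover counting error only. On the left all UMIs count; on the right cells are thinned to 2000 UMIs and typed again, and shallower cells are left out, so that the panels hold different cells. Endothelial shares lie above immune shares in all 4 libraries in both panels, while the order of deligated and homeostatic endothelial shares changes between panels.

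Endothelial cells reached the sum more often than leukocytes of the same library. Among immune cells (Ptprc present, the endothelial genes and Pdgfra absent) 1.67%, 2.36%, 3.11% and 3.63% had a sum of at least 6. Their median depth was 5453.5, 5099, 5907.5 and 5811 UMIs, against 5967, 4479, 3575 and 3557 in endothelial cells. The endothelial share was higher by 5.95 points on average and in 4 of 4 libraries (exact sign permutation test over libraries, two-sided, p = 0.125, the smallest that 4 pairs allow). Fibroblasts (Pdgfra present) had shares of 9.02%, 7.77%, 6.38% and 7.19% at median depths of 13043, 8815.5, 6639.5 and 6511.5 UMIs. The endothelial minus fibroblast difference was 1.05 points and positive in 2 of 4 libraries (exact p = 0.5). At 2000 UMIs per cell and a sum of at least 3 it was 3.65 points and positive in 4 of 4 libraries (exact p = 0.125, again the smallest possible). The 3 comparisons of shares were not adjusted for each other, since none could pass 0.05.

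The next question was which other genes go with the rule genes. UMI counts were summed per library over members and over sum 0 cells and tested with edgeR with the library as a term, and the 5 rule and 6 gate genes were left out of the test. Many genes of nucleic acid sensing, antiviral defence, the Isg15 and ubiquitin pathway list and the interferon-inducible GTPases were called higher in members. Of the NF-kB and MHC class II lists none were called. Of 11016 genes tested, 293 were called higher (2.66%) and 137 lower (1.24%) at a Benjamini-Hochberg adjusted p below 0.05, and the median log2 fold change was 0.00. The counts without 1 library were 196 to 369 higher and 79 to 236 lower, with the fewest higher without homeostatic 2 (196) and the fewest lower without deligated 1 (79). Against depth-matched cells 248 of 9848 were higher (2.52%) and 178 lower (1.81%). The matched test shared 206 higher calls, 70.3% of the first list and 83.1% of the second, and 62 lower calls, 45.3% and 34.8%. Since the rule chose cells by interferon-induced genes, a call says that a gene's level goes with the rule genes, whose counts also rise with depth.

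**Figure D2:**
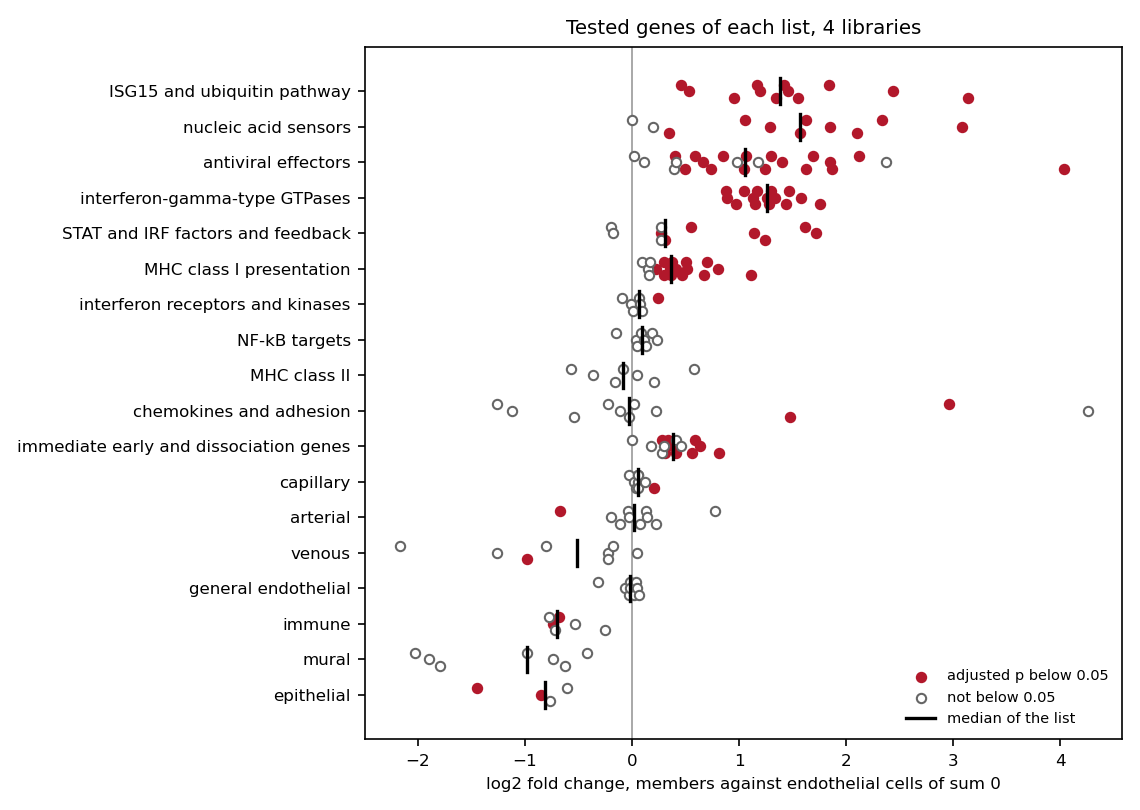
Log2 fold change between members and sum 0 cells (x axis) for every tested gene of 18 lists (y axis), with genes below an adjusted p of 0.05 (edgeR) filled, other genes open and the list's median as a black bar. The medians of the Isg15, sensor, antiviral and GTPase lists lie between 1.05 and 1.57, the receptor and general endothelial medians lie near 0, and the mural median lies at -0.98.

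Transcripts of interferons themselves were nearly absent from the members. The type I and type III interferon genes of the files, 20 in number, had 21 UMIs in all cells and 0 in members, which allows a level of up to 0.360 CPM in members. Ifng, the gene of interferon-gamma, had 2968 UMIs in all cells, of which 1458 lay in immune cells and 1 in a member. Of interferon receptors and kinases, 1 of 7 tested was called higher and 0 were called lower, with a median log2 fold change of 0.06. Ifnar1, a chain of the type I receptor, stood at 57.9, 56.3, 43.4 and 58.1 CPM in members and at 58.7, 61.3, 45.3 and 46.5 CPM in sum 0 cells. Ifngr1, a chain of the interferon-gamma receptor, ranged from 243 to 308 CPM in members and from 254 to 295 CPM in sum 0 cells. Jak1 was the gene called (0.25, SE 0.06, adjusted p = 0.0137), and it was not called against matched cells (0.16, adjusted p = 0.231), with DESeq2 (0.24, adjusted p = 0.235), with members taken from cells thinned to 2000 UMIs (0.13, adjusted p = 0.712) or without deligated 1, homeostatic 1 or homeostatic 2 (0.17 to 0.24).

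The factors that carry the interferon signal to DNA are themselves interferon-induced in part. Of 11 tested STAT and IRF genes and feedback genes, 7 were called higher and 0 lower, and the median was 0.31. Of the 7, Stat3 (0.31), Irf2 (0.28) and the feedback inhibitor gene Socs1 (0.55) lost the call with DESeq2, at 0.30, 0.27 and 0.55 (adjusted p = 0.0756, 0.0560 and 0.0512). Irf2 also lost it without homeostatic 2 (0.23), and Stat3 against matched cells (0.22, adjusted p = 0.0846), without deligated 2 (0.25) and under thinned membership, that is with members taken from cells thinned to 2000 UMIs (0.003, adjusted p = 0.999). Irf7, a factor that drives type I interferon genes, stood at 209, 288, 214 and 298 CPM in members and at 72.0, 95, 69.9 and 66.9 CPM in sum 0 cells (log2 fold change 1.72, SE 0.09, adjusted p = 1.63e-08). Every member value lay above every sum 0 value. Stat2 stood at 118, 138, 161 and 152 CPM in members and at 56.3, 67.2, 59.1 and 55.1 CPM in sum 0 cells (1.25, SE 0.08). Irf9, its partner on the ISRE, was higher by 1.14 (SE 0.07), and neither gene's ranges overlapped. Irf1, a factor downstream of interferon-gamma, was at 194 to 324 CPM in members and 171 to 231 CPM in sum 0 cells and did not pass (0.27, adjusted p = 0.0602). Socs3, another feedback inhibitor gene, did not pass either (0.27, adjusted p = 0.0551), and it stood at -0.01 against matched cells.

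Sensors of nucleic acid warn the cell of infection. Of 11 tested, 9 were called higher and 0 lower, at a median of 1.57. Zbp1, a sensor of Z-form nucleic acid that can start cell death, stood at 34.0, 65.4, 41.9 and 63.5 CPM in members and at 3.22, 10.1, 5.12 and 5.77 CPM in sum 0 cells (3.08, SE 0.14, adjusted p = 2.15e-16). Oas1a, which makes the second messenger that activates RNase L, stood at 12.8, 20.6, 32.1 and 33.3 CPM against 3.62, 3.96, 6.87 and 4.67 CPM (2.34, SE 0.20). It shares 70.7% of such 30-base windows with Oas1g, so reads of the pair may be split. Eif2ak2, the RNA-activated kinase that halts translation, was higher by 1.62 (SE 0.08), and the RIG-I family genes Dhx58, Ifih1 and Ddx58 were higher by 1.85, 1.29 and 1.05. Tlr3, an endosomal RNA receptor gene, was called by a small margin (0.35, adjusted p = 0.0464) and lost the call against matched cells (0.38, adjusted p = 0.0698), with DESeq2 (0.34, adjusted p = 0.748) and without any 1 of the 4 libraries (0.25 to 0.41).

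Of the Isg15 and ubiquitin pathway list, which also holds ADP-ribosyltransferase genes, 12 of 12 tested genes were called higher, at a median of 1.38. Rnf213 (1.55) lost the call without deligated 2 (1.62, adjusted p = 0.0800), and Uba7, the activating enzyme of Isg15 (0.53), lost it under thinned membership (0.42, adjusted p = 0.190). Isg15 itself stood at 591, 655, 890.1 and 973 CPM in members and at 69.8, 92.5, 91.3 and 92.1 CPM in sum 0 cells (3.14, SE 0.08, adjusted p = 1.26e-11). Every member value lay above every sum 0 value. Members held 40.6%, 45.1%, 42.7% and 40.1% of all endothelial Isg15 UMIs, against 12.4%, 17%, 11.6% and 9.63% of all endothelial UMIs. Usp18, the protease that removes Isg15 and damps the type I receptor, stood at 64.0, 81.9, 110.5 and 122 CPM against 14.3, 15.0, 22.1 and 17.7 CPM (2.44, SE 0.10). Herc6, a ligase of Isg15, and Parp14, an ADP-ribosyltransferase, were higher by 1.85 and 1.46.

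**Figure D3:**
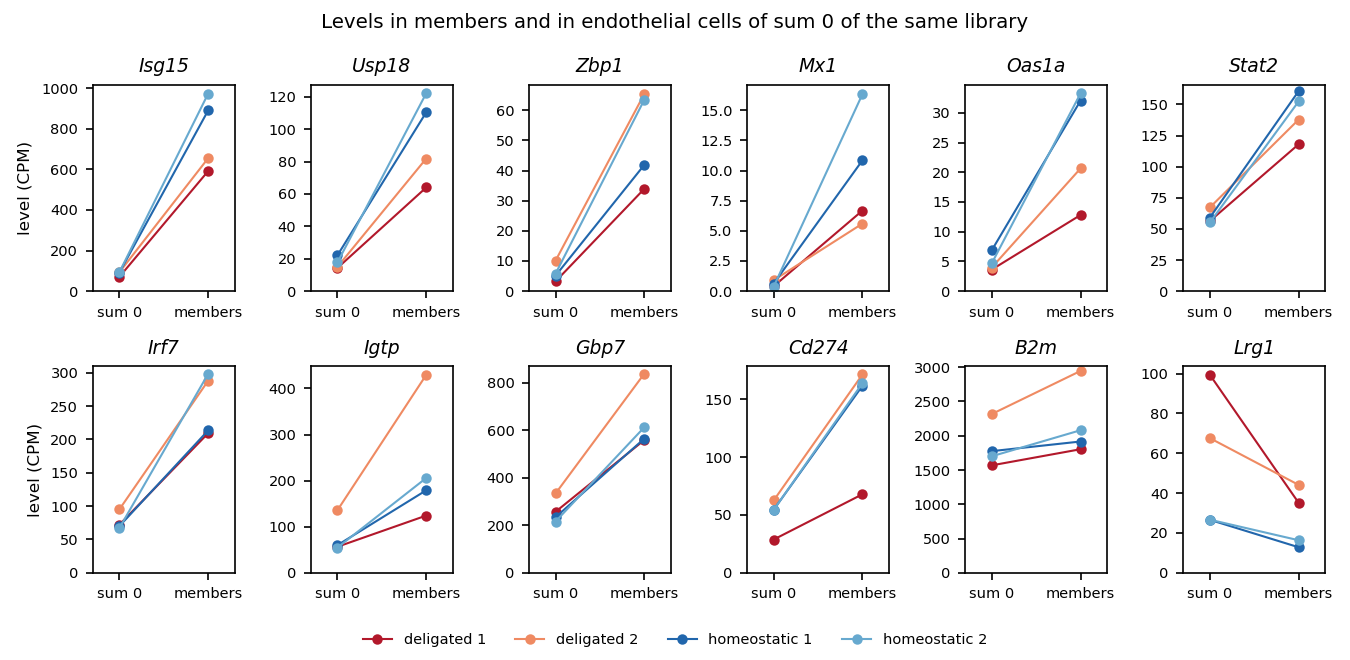
Level in CPM (y axis, from 0) of 12 genes in sum 0 cells and in members of each library, joined by a line per library. Lines rise in all 4 libraries for the interferon-induced genes, steeply for Isg15, Usp18, Zbp1 and Mx1 and less for B2m; the lines of Lrg1, a venous gene, fall in all 4 libraries.

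Antiviral effector genes were called higher in 17 of 24 tested and lower in 0, at a median of 1.05, and in 20 with DESeq2. Mx1 of this list had the highest fold change of all called genes but few UMIs, with 12, 16, 22 and 27 in members. It stood at 6.68, 5.60, 10.8 and 16.3 CPM in members against 0.402, 0.901, 0.624 and 0.368 CPM in sum 0 cells (4.04, SE 0.41, adjusted p = 1.5e-08). Bst2, which tethers budding virus to the cell, stood at 859, 1181, 1390.1 and 1615 CPM against 438, 560.5, 720.2 and 685 CPM (1.05, SE 0.05). Ifi44 was higher by 1.85 (SE 0.07). Ifitm3, which blocks viral entry, was higher by 0.66 (SE 0.05). Ifitm2, of the same family, stood at 1059, 1281, 1123 and 1294 CPM against 1004, 1178, 1252 and 1221 CPM (0.02, adjusted p = 0.938). Ifi206, Ifi209, Ifi211, Ifi204 and Ifi213 of the HIN-200 family of DNA-binding proteins were higher by 2.71, 2.86, 2.22, 2.12 and 1.89. Ifi211 overlaps Mndal on the same strand and shares 33.5% of its windows with it, and Ifi213 shares 26.5% with Ifi208. Apol9b (2.57) shares 60.5% with Apol9a (2.74) and Phf11b (2.15) shares 54.8% with Phf11c (1.91). Values within all these pairs are uncertain. Genes that overlap another gene on the other strand, among them Usp18, Irf7, B2m, Cxcl10, Dbp and Tagln, may hold reads of it, since use of strand in counting is not given in the sources used here.

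Guanylate-binding proteins and immunity-related GTPases, strongly induced by interferon-gamma and also by type I interferon, were higher as a whole: 15 of 15 tested, at a median of 1.26 and in 4 of 4 libraries each. Tgtp1 and Tgtp2 of this list share 100% of the 30-base windows in their last 500 bases, so they do not count as separate genes. Iigp1 stood at 638, 1290.1, 924 and 1113 CPM in members and at 282, 490.0, 379 and 387 CPM in sum 0 cells (1.34, SE 0.05, adjusted p = 1.43e-17). Gbp7 stood at 559, 839, 565 and 613 CPM against 257, 334, 234 and 216 CPM (1.29, SE 0.06). Igtp stood at 124, 429, 179 and 206 CPM against 56.5, 136, 59.9 and 54.7 CPM (1.58, SE 0.10). Deligated 2 was highest among members and among sum 0 cells for these 3 genes, so that for Igtp its sum 0 cells stood above the members of deligated 1. Of the 10 tested GTPase genes with a promoter in the table, 9 held the ISRE core and 6 the GAS core.

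MHC class I presents peptides from inside the cell, cut by the proteasome. Of 18 class I genes 14 were called higher, at a median of 0.37, and 17 against matched cells. The immunoproteasome subunit gene Psmb8 stood at 628, 923, 826 and 865 CPM against 408, 520.1, 547 and 533 CPM (0.67, SE 0.05, adjusted p = 3.39e-11), and the class I transactivator gene Nlrc5 was higher by 1.12 (SE 0.13). B2m, the class I light chain, was higher by 0.22 (SE 0.05, adjusted p = 0.00402) and lost the call without deligated 2 (0.18) or homeostatic 2 (0.197). The heavy chain genes H2-K1 (0.16, adjusted p = 0.0606) and H2-D1 (0.09, adjusted p = 0.418) did not pass, yet both were called against matched cells, at 0.25 (adjusted p = 9.43e-05) and 0.19 (adjusted p = 0.00200). Of 7 class II genes, which present peptides taken up from outside, 0 were called in either direction and the median was -0.09.

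Chemokine and adhesion genes were called higher in 2 of 11 tested. Cd274, which encodes the checkpoint ligand PD-L1, stood at 67.9, 171, 162 and 164 CPM in members and at 28.8, 62.5, 54.6 and 54.4 CPM in sum 0 cells (1.47, SE 0.07, adjusted p = 1.34e-15). Cxcl9, a T cell attractant induced by interferon-gamma, was higher by 2.96 (SE 0.33). Its UMIs lay in few cells: 4, 9, 5 and 11 members had any. Cxcl10, a related attractant, stood at 5.01, 51.4, 33.5 and 91.4 CPM against 2.21, 3.96, 1.12 and 2.09 CPM and did not pass with edgeR (4.26, SE 0.66, adjusted p = 0.109) but did with DESeq2 (3.91, adjusted p = 7.64e-05). In deligated 2, 17 of 345 members carried its 147 UMIs and 1 cell carried 84 of them. Most members had no Cxcl10 UMI at this depth. Of 8 NF-kB targets 0 were called in either direction (median 0.10).

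Levels of interferon-induced genes were graded over cells with more rule-gene UMIs. Over classes of 0, 1 to 2, 3 to 5, 6 to 10 and over 10 rule-gene UMIs, the median library level of Isg15 was 91.7, 164, 334, 584 and 993 CPM. The endothelial receptor gene Kdr had medians of 1977 to 2110 CPM. For Cxcl10 the median was 2.56 CPM in cells with 6 to 10 rule UMIs and 88.5 CPM in cells with over 10, where the libraries gave 7.22, 111, 65.7 and 228 CPM. Deeper cells fall into higher classes, with median depths from 3423 to 6849 UMIs. Among members thinned to 2000 UMIs, 53 other interferon genes summed to a median of 28, 32, 34 and 34 UMIs against 16, 19, 17 and 17 in sum 0 cells. Their spread was wide, from 9 to 105 UMIs in deligated 1 and from 1 to 133 in homeostatic 1. The rule sum and this other sum were correlated across members of a library with Spearman's rho of 0.52, 0.44, 0.57 and 0.59, where both sums come from the same cells and libraries.

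**Figure D4:**
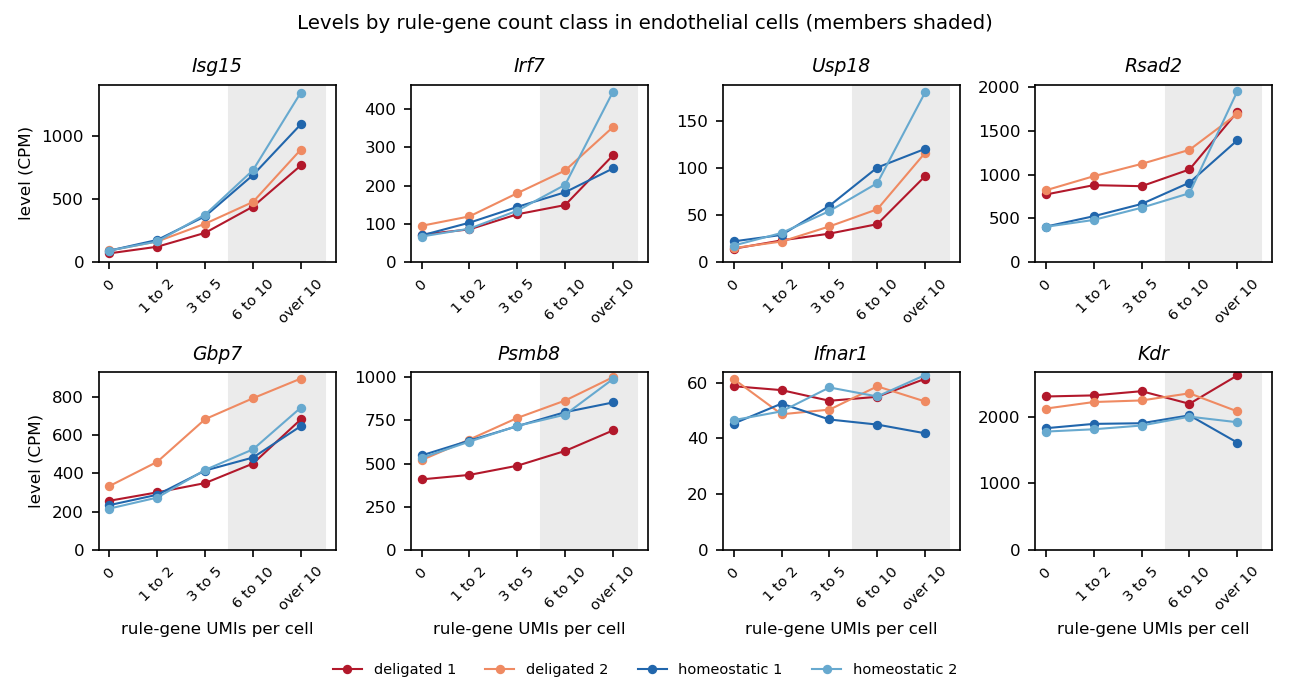
Level in CPM (y axis, from 0) of 8 genes over classes of endothelial cells by rule-gene UMIs per cell (x axis), 1 line per library, with the members' classes shaded. Isg15, Irf7, Usp18, Rsad2, Gbp7 and Psmb8 are highest in the class over 10 in all 4 libraries. Ifnar1 is highest there only in deligated 1 and homeostatic 2, and Kdr only in deligated 1.

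Genes of vessel types were counted next. Of 8 venous genes 1 was called lower and 0 higher (median -0.52), and against matched cells 4 were lower (median -0.81). Lrg1, a glycoprotein gene of venules, stood at 35.1, 44.1, 12.8 and 16.3 CPM in members and at 99.3, 67.6, 26.6 and 26.7 CPM in sum 0 cells (-0.98, SE 0.13, adjusted p = 9.51e-05). Vwf, the clotting factor of larger vessels, stood at 9.47, 5.95, 4.93 and 15.1 CPM against 87.3, 29.9, 21.3 and 25.1 CPM. It did not pass with edgeR (-2.17, SE 0.44, adjusted p = 0.160), and was called with DESeq2 (-2.11, adjusted p = 0.00154) and with edgeR against matched cells (-2.21, adjusted p = 0.0385). The adhesion gene Selp was also called with DESeq2 (-1.31, adjusted p = 0.00423) and not with edgeR (adjusted p = 0.0629). Of 9 capillary genes 1 was called higher and 0 lower. It was the fatty acid transporter gene Cd36 (0.21, adjusted p = 0.0227), which lost the call with DESeq2 (0.20), under thinned membership (0.12, adjusted p = 0.620) and without deligated 1, deligated 2 or homeostatic 2 (0.13 to 0.23). Of 10 arterial genes 0 were called higher and 1 lower, the kinase gene Bmx (-0.67, adjusted p = 0.0338). It lost the call against matched cells (-0.54, adjusted p = 0.307), with DESeq2 (-0.71) and without deligated 1, homeostatic 1 or homeostatic 2 (-0.56 to -0.79). Stmn2 of the arterial list stood at 579.9 CPM in homeostatic 1 and 36.9 to 71.0 CPM in the other libraries, where 1 member of homeostatic 1 held 641 of its 1176 UMIs.

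The genes with the largest falls included genes of muscle and of secretory epithelium. Pln, which regulates the muscle calcium pump, stood at 0.557, 3.5, 0.493 and 0 CPM against 7.24, 17.8, 4 and 0.983 CPM (-2.68, SE 0.40), and the count of 0 in homeostatic 2 allows up to 1.82 CPM. Fgl2, a secreted fibrinogen-like protein gene, fell by 2.02 on the log2 scale (SE 0.28), and Ramp1, a receptor partner for the vasodilator CGRP, fell by 2.11 (SE 0.44) but lost the call without deligated 2 (-2.32) and with DESeq2 (-2.26, adjusted p = 0.129). Mural genes, summed above, had a median log2 fold change of -0.98, with 0 of 7 called by edgeR, while DESeq2 called Acta2 (-2.47, adjusted p = 0.0210) and Myh11 (-2.66, adjusted p = 0.0244) lower. Dcpp3 and Prol1 are secretory products of salivary epithelium: Prol1 stood at 3.34, 22, 661 and 546 CPM in members and at 14.3, 149.9, 2117 and 1891 CPM in sum 0 cells. Homeostatic libraries held far more of it in both kinds of cell. Prol1 (-1.95) lost the call without deligated 1 (-1.95) or homeostatic 2 (-2.07), against matched cells (-2.57, adjusted p = 0.179) and under thinned membership (-0.14, adjusted p = 0.586). Dcpp3 had 0 and 1 UMIs in deligated members and 3 and 2 in deligated sum 0 cells, so its value (-3.39) rests on the homeostatic libraries. They stood at 51.8 and 93.8 CPM in members and at 592 and 896 CPM in sum 0 cells. Their matched cells stood at 86.7 and 3233 CPM, and the call was lost against matched cells (-3.66, adjusted p = 0.565).

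Immediate early genes, which respond to stimulation and to tissue dissociation, were also higher in members. Of 15 such genes 9 were called higher and 0 lower (median 0.38), and against matched cells 5 were higher (median 0.22), and 4 were higher under thinned membership and also at a rule-gene sum of at least 10. Fos stood at 1655, 2072, 769 and 762 CPM in members and at 1074, 1392, 488 and 459 CPM in sum 0 cells (0.63, SE 0.05, adjusted p = 2.36e-11), and its difference was 0.28 against matched cells. Egr1 went from 0.56 (adjusted p = 1.5e-08) to 0.14 against matched cells (adjusted p = 0.220) and 0.23 under thinned membership (adjusted p = 0.103). The part of these genes in the other results was not tested.

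A further question was whether the difference between members and sum 0 cells changed after duct release. The interaction of cell status and group called 4 genes with a positive value (0.0363%) and 9 with a negative value (0.0817%) of 11016. A positive value means that the log2 difference between members and sum 0 cells was higher in deligated libraries, whether that difference was a rise or a fall. Without 1 library the counts were 1 positive and 0 negative (deligated 1), 2 and 1 (deligated 2), 3 and 12 (homeostatic 1), and 23 and 139 (homeostatic 2). Rsad2, which encodes viperin, an antiviral radical enzyme, was the interferon gene called under most alternatives. It stood at 1365, 1461, 1149 and 1249.5 CPM in members and at 774, 822, 407 and 405 CPM in sum 0 cells. Both deligated values lay above both homeostatic values in members, and by a wider margin in sum 0 cells. The rise from sum 0 cells to members was smaller in deligated libraries (interaction -0.71, SE 0.09, adjusted p = 5.2e-05). It was called in 15 of 17 alternatives and not without deligated 1 (-0.70, adjusted p = 0.475) or deligated 2 (-0.73, adjusted p = 0.357), where its value moved little. With members taken from cells thinned to 2000 UMIs it was -0.57 (adjusted p = 0.00205) and against matched cells -0.79 (adjusted p = 5.48e-05). In the test over all libraries Rsad2 itself did not pass with edgeR (1.18, SE 0.20, adjusted p = 0.137) and was called with DESeq2 (1.17, adjusted p = 5.28e-07), and it was higher in 4 of 4.

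**Figure D5:**
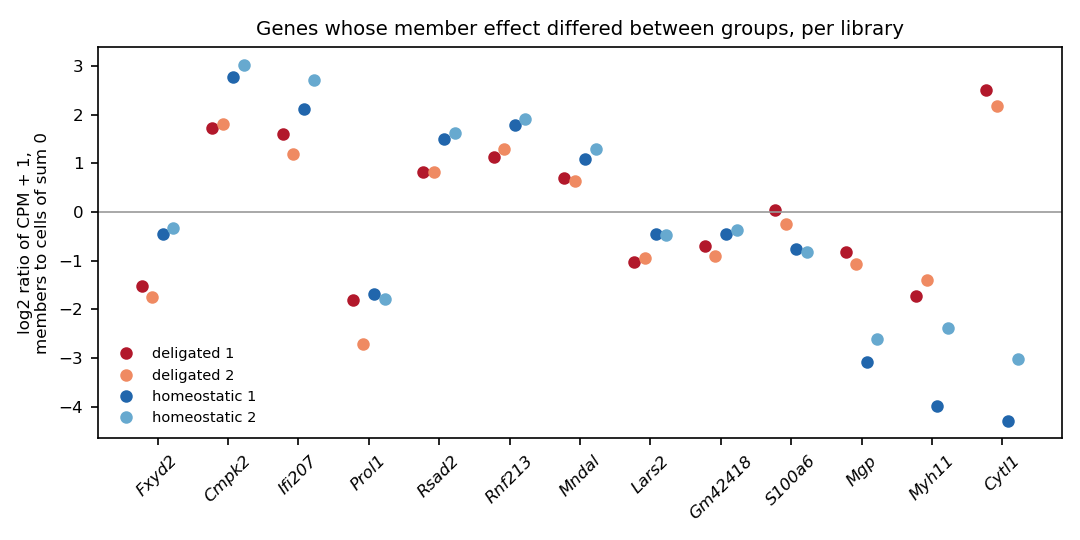
Log2 ratio of CPM + 1 between members and sum 0 cells (y axis) per library (points) for the 13 genes with a called interaction (x axis). For Rsad2, Cmpk2, Rnf213, Mndal and Ifi207 all ratios are positive and both deligated libraries lie below both homeostatic libraries; for Mgp, Myh11 and Cytl1 they lie above.

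Its neighbour Cmpk2 stood at 124, 122, 163 and 180.3 CPM in members and at 36.4, 34.2, 23 and 21.2 CPM in sum 0 cells. Its interaction of -1.12 (SE 0.16, adjusted p = 0.000229) was not called under thinned membership (-0.64, adjusted p = 0.829) or against matched cells (-0.96, adjusted p = 0.190). The call was also lost with DESeq2 (-1.11, adjusted p = 0.530) and without deligated 1 (-1.09) or deligated 2 (-1.17). Rnf213, a giant ubiquitin ligase gene (-0.61), Mndal (-0.50) and Ifi207 (-1.04) also had a smaller rise in deligated libraries. Each lost the call under thinned membership, against matched cells and with DESeq2 (-0.596, -0.486 and -0.999). Mndal, with 89.7 kb of introns, is overlapped on the same strand by Ifi203 and Ifi211 and may hold reads of them. Under thinned membership and against matched cells the values were -0.52 and -0.60 for Rnf213, -0.40 and -0.41 for Mndal and -0.33 and -1.18 for Ifi207. The genes with a positive value were Cytl1, Mgp, Myh11 and S100a6, a calcium-binding protein gene (0.71). S100a6 was called in 6 of 17 alternatives, and not against matched cells (1.22, adjusted p = 0.253), under thinned membership (0.47, adjusted p = 0.990), without deligated 1 (0.58, adjusted p = 1) or without deligated 2 (0.85, adjusted p = 0.429). Cytl1, a cytokine-like gene, had 147 UMIs in 3 members of deligated 1, of which 1 cell held 95, and 17, 0 and 3 UMIs in the members of deligated 2, homeostatic 1 and homeostatic 2. Its fitted interaction of 7.27 is no measure of size, because homeostatic 1 had no UMI of it and homeostatic 2 had 3. Mgp, a matrix protein gene of arterial cells, stood at 128, 94.5, 28.1 and 47.2 CPM in members and at 228, 199.7, 246 and 292 CPM in sum 0 cells. Members lay below sum 0 cells in all 4 libraries, less so in deligated libraries (interaction 1.93). The call was lost under thinned membership (0.23, adjusted p = 0.994) and against matched cells (2.32, adjusted p = 0.968). Myh11, smooth muscle myosin, is a mural marker. It had 2 and 1 UMIs in homeostatic members, so its fitted interaction is no measure of size either, and it was called in 7 of 16 alternatives. The mural genes summed to 212, 422, 20.7 and 51.4 CPM in members and to 465, 1084, 248.6 and 66.4 CPM in sum 0 cells, and their part in the result was not tested.

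Finally, members of the groups were compared directly, with 2 against 2 libraries. Members of deligated libraries held more transcripts of immediate early genes (10 of 15 higher, but 3 without homeostatic 1) and mural genes (4 of 7 higher), and fewer of epithelial genes (3 of 3 lower) and of many genes with long introns. Of 9975 genes tested, 407 were higher (4.08%) and 1098 lower (11%) in deligated libraries. Without 1 library, 111 and 593 (deligated 1), 186 and 631 (deligated 2), 67 and 623 (homeostatic 1) and 175 and 1052 (homeostatic 2) were called. Dbp, a clock-controlled transcription factor gene, stood at 93.5 and 98.3 CPM in deligated against 12.8 and 14.5 CPM in homeostatic members (2.82, SE 0.21, adjusted p = 6.11e-08). Hlx, a homeobox gene (1.48), Socs3 (1.78), Egr1 (1.34) and Fos (1.29) were also higher, and so was Aplnr, the apelin receptor of sprouting vessels (1.29). Tagln of the mural list was higher too (4.44), as was Myh11, with 53 and 156 UMIs in deligated and 2 and 1 UMIs in homeostatic members, and both lost the call with members cut at a sum of 4 (adjusted p = 0.459 and 0.589). Of 4 fibroblast genes 2 were higher, the collagen genes Col1a1 (2.60) and Col1a2 (2.997), and both lost the call without deligated 2 (1.93 and 2.68), Col1a1 also with DESeq2 (2.60, adjusted p = 0.0545) and without homeostatic 1 (2.64). Of 5 immune genes 2 were lower, C1qa (-3.79) and Lyz2 (-2.95), and Lyz2 lost the call without deligated 1, deligated 2 or homeostatic 1 (-2.56 to -3.08). The epithelial genes were Krt18 (-5.87), Krt7 (-4.31) and Krt8 (-3.94), with 0 to 1.05 CPM in deligated members and 5.42 to 30.3 CPM in homeostatic members, so that their fitted values are no measure of size. Krt8 lost the call without deligated 1, deligated 2 or homeostatic 1. A UMI of another cell type's marker was present in 33.8% and 63.2% of deligated and 21.3% and 13.3% of homeostatic members, and the part of other cell types in these differences was not tested. Sum 0 cells of the same libraries gave Dbp at 58.7 and 86.7 CPM against 12.2 and 10.1 CPM, and Aplnr at 192 and 222 CPM against 97.8 and 97.3 CPM, and neither gene had a called interaction.

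The lower genes had long introns. Their median total intron length was 113 kb, against 20.1 kb over all genes tested and 8.26 kb for the higher genes. Cmss1, a gene of ribosomal small subunit biology with 303 kb of introns, stood at 20.0 and 12.6 CPM in deligated and 4271 and 4473 CPM in homeostatic members. Camk1d, a calcium-dependent kinase gene with 414 kb, stood at 1.11 and 1.05 CPM against 962 and 1041 CPM. Reads in introns are counted by default in Cell Ranger from the version of the homeostatic headers on, and the headers do not give the setting used. The software version cannot be told apart from surgery and age.

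Interferon genes were compared between the groups in the same fit. Of 92 tested genes of 6 interferon lists (sensors, effectors, Isg15 and ubiquitin pathway, factors, GTPases, MHC class I), 1 was higher and 14 lower in deligated members. That is 1.09% and 15.2% of them, beside 4.08% and 11% of all genes tested. Their median was -0.04, against 0.00 over all genes. The counts moved when 1 library was left out: without deligated 1, 5 were higher and 7 lower (median 0.10), without deligated 2, 1 and 15 (median -0.31), without homeostatic 1, 1 and 5, and without homeostatic 2, 1 and 5. The shares of lower genes were then 7.45%, 16.3%, 5.43% and 5.32%, beside 5.44%, 5.96%, 6.11% and 9.73% of all genes tested. DESeq2 called 1 higher and 7 lower (7.61%, beside 6.33% of all genes). Herc6 stood at 117 and 138 CPM in deligated and 315 and 367 CPM in homeostatic members (-1.40, SE 0.16, adjusted p = 1.21e-05). In sum 0 cells Herc6 stood at 41.6 and 47.0 CPM against 78.3 and 80.2 CPM. Gbp8 was at 3.34 and 5.95 CPM against 117 and 94.4 CPM, and its sum 0 cells showed the same split at 1.81 and 4.51 CPM against 50.8 and 50.7 CPM. Ddx60 (-1.13), Nlrc5 (-1.11) and Rnf213 (-0.77) were lower too (adjusted p = 0.000402, 0.000708 and 0.00309). Under thinned membership they stood at -1.15, -0.66 and -0.61, and of them only Nlrc5 lost the call (adjusted p = 0.170). Rnf213 lost it without homeostatic 2 (-0.65). Isg15 was lower by 0.57 on the log2 scale (SE 0.15, adjusted p = 0.0171) and Usp18 by 0.66 (adjusted p = 0.0157). Both lost the call with members taken from thinned cells, at -0.28 (adjusted p = 0.270) and -0.42 (adjusted p = 0.309), and without deligated 1, homeostatic 1 or homeostatic 2, at -0.47 to -0.66 for Isg15 and -0.54 to -0.75 for Usp18. Usp18 also lost it with DESeq2 (-0.65, adjusted p = 0.112). Under thinned membership 4 of 86 interferon genes were higher (4.65%) and 5 lower (5.81%), beside 3.26% and 7.67% of 7173 genes tested, with a median of 0.02. With membership from all UMIs and the cells then thinned to 2000 UMIs, 1 of 85 was higher (1.18%) and 14 lower (16.5%), beside 3.68% and 9.25% of all genes, with a median of -0.13.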

How the data were processed

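The data are single-cell UMI counts per gene and barcode, deposited by the authors as filtered matrices written by Cell Ranger 6.0.1 (deligated) or 7.0.0 (homeostatic), per the file headers. The submitters' processing notes name Cell Ranger 6.0.1, mm10 and Seurat. Barcodes with at least 300 genes and at most 10% mitochondrial UMIs were kept, 4521, 8386, 11713 and 12065 per library. Doublets were scored with scrublet in scanpy 1.11.5 and removed only as an alternative. Counts were summed per library over members and over cells of sum 0 and tested with edgeR 4.0.16 (R 4.3.3; filterByExpr, TMM, quasi-likelihood test, Benjamini-Hochberg adjustment below 0.05), checked on simulated data first. Member sums held 1795895, 2857221, 2027962 and 1652664 UMIs. The depth-matched and thinned-membership settings, and the shares with types kept from all UMIs or thinned without 1 library, were chosen after seeing the data. Members and gene lists were chosen with earlier results of these data known. Genes were named by a fixed rule: the 20 highest called genes by fold with at least 20 UMIs in members, the 8 lowest with at least 100 UMIs in sum 0 cells, up to 8 genes per list, and 6 each way by p in the comparisons of groups. Gbp8, Ddx60, Mndal, Ifi207, Socs1, Nlrc5, Bmx and Uba7 fall outside it and were chosen after their values were seen. Of 31053 gene identifiers 31011 matched the annotation. Results of 1 gene are not reported here. Intervals and floors of 3 counts cover counting error only.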

Additional observations from a re-analysis of the deposited data

Results flagged for a closer look

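The log2 difference between members and cells of sum 0 differed between deligated and homeostatic libraries for 13 genes by the interaction test (edgeR, adjusted p below 0.05). On the log2 scale, deligated minus homeostatic, the fitted difference was 1.93 for Mgp and 0.71 for S100a6. For Cytl1 it was fitted at 7.27 and for Myh11 at 3.05, which are no measures of size, since homeostatic members held 0 and 3 UMIs of Cytl1 and 2 and 1 of Myh11. It was -0.71 for Rsad2, -1.12 for Cmpk2, -0.61 for Rnf213, -0.50 for Mndal and -1.04 for Ifi207, all interferon-induced genes. For Fxyd2, a sodium pump subunit gene, it was -1.41. For the salivary secretory gene Prol1 it was -0.92. For Lars2, a mitochondrial leucyl-tRNA synthetase gene, it was -0.50, and for Gm42418, which lies over ribosomal RNA sequence, it was -0.37. Fxyd2 stood at 1.11 and 15.1 CPM in deligated and 602 and 654 CPM in homeostatic members. The number of alternatives that called a gene ran from 4 of 17 for Prol1 to 15 of 17 for Rsad2. Of the 13 genes, Mgp was called without deligated 1 (adjusted p = 0.0475), and Cytl1 and Mgp were called without deligated 2 (adjusted p = 0.00559 and 0.00652).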

How the results depend on the processing

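Against the main 293 higher and 137 lower genes in members, DESeq2 called 186 and 47, and a fit with no term for library 78 and 0. Lower genes numbered 266 with no filter on low counts, 70 with stricter cell filters, 48 at a sum of at least 10, 91 against cells of sum 0 to 2, 72 in thinned cells and 74 with thinned membership. Leaving out 1 library gave 196 to 369 higher and 79 to 236 lower. The interaction was positive for 4 called genes and negative for 9. DESeq2 gave 2 and 4, no filter 12 and 66, a sum of at least 4 gave 1 and 5, a sum of at least 10 gave 2 and 3, thinned cells 2 and 14, thinned membership 2 and 1. References of sum 0 to 2 gave 9 positive. Negative calls numbered 4 without the highest doublet scores, 14 without cells holding another type's marker and 3 against matched cells, and leaving out 1 library gave 1 to 23 positive and 0 to 139 negative. For members between groups (407 higher, 1098 lower), DESeq2 gave 153 and 631, a sum of at least 10 gave 170 and 614, thinned cells 266 and 669, thinned membership 234 and 550, no filter 647 higher. Leaving out 1 library gave 67 to 186 higher and 593 to 1052 lower. With the replicate block 480 were higher and 1234 lower. Deviations of same-numbered libraries from their group means had a correlation of -0.107. With 2 libraries per group both pairs must give the same value, so it cannot decide whether the numbers pair libraries. A crossed replicate block gave 329 and 1051. The share difference between groups turned to -1.49 and -1.001 points in thinned cells at sums of 3 and 6, and to -1.52 at a sum of 3 with types from all UMIs, and was 4.57 and 1.62 at sums of at least 4 and 10, 1.71 without cells holding another type's marker and 1.26 to 3.96 without 1 library. In thinned cells at a sum of 3 it was 0.56 without deligated 1, -3.55 without deligated 2, -1.09 without homeostatic 1 and -1.90 without homeostatic 2. The endothelial minus fibroblast share was -0.037 points at a sum of at least 10 (0.22 to 1.54 without 1 library), and the endothelial minus immune share was 4.95 to 6.74 without 1 library, 10.3 and 2.71 at sums of at least 4 and 10, and 1.70 in cells thinned to 2000 UMIs at a sum of 6. The interaction reversed for Prol1 (0.80 at an endothelial sum of at least 6, 0.083 without other markers, 0.65 with thinned membership), Myh11 (-1.15 at a sum of at least 4, -0.064 without doublets), Fxyd2 (0.16 without other markers, 0.19 with thinned membership) and Lars2 (0.072 against matched cells). Stmn2 in members reversed to -0.75 without other markers, -0.54 with thinned membership and, leaving out 1 library, ranged from -0.32 (without homeostatic 1) to 1.09. The cause of these changes was not tested. Of 81 called named genes, 36 kept the call in every alternative run, and 43 lost it with no term for library. Matching 5 reference cells per member was not run, since deligated 2 held 1286 reference cells for 345 members.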
